A study of Mus musculus with 4 samples.

Results

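A tandem cassette is a block of 2 or more neighbouring exons that a transcript can keep or leave out together. All 4074 tandem cassette events that the authors counted in the mouse genome were taken, out of 38240 alternative splicing events of 6 types, and they lie in 2220 genes. The number of exons in a block was read from the name of the event: 3032 blocks had 2 exons, 780 had 3 and 262 had 4. Of these, 841 events in 513 genes had enough junction tags to be tested, and 3233 had not. Many events of a gene share exons, so tested events with overlapping exons were counted as 1 locus, which left 536 loci.

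RNA came from the embryonic cortex of mice at stage E14.5, when neurons are being born. The 2 control embryos carried floxed *Qk* alleles without Cre (*Qk* fl/fl, called wild type in the labels), and the 2 *Qk* cKO embryos were *Nestin*-cre:*Qk* fl/fl littermates. In *Qk* cKO, Cre is driven by the *Nestin* promoter in neural progenitor cells and cuts out exon 2 of *Qk*. Cells in whose lineage this promoter was never active keep the gene. *Qk* encodes the Qki proteins, RNA-binding proteins of the STAR family that bind ACUAA-like motifs, and the nuclear isoform Qki5 is known as a splicing regulator of neural stem cells.

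When the exons of a block are joined, the transcript gains a longer stretch at once, and the reading frame is kept only if the summed length divides by 3. The exons of a block need not travel together, because each exon has splice sites of its own and a transcript may keep only the first or only the second. Cassette exons are often read differently in progenitors and neurons of the developing cortex, and many lie in genes for cytoskeletal and membrane proteins. Whole cortex was sequenced, so a shift in the share of cell types and a shift of splicing within a cell cannot be told apart in any value below.

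The deletion was visible in both *Qk* cKO embryos: per 100 tags on the junction of *Qk* exons 3 and 4, the junction of exons 2 and 3 had 110.6 and 128.6 tags in control and 7.02 and 8.19 in *Qk* cKO. Total tags on genes lay between 37942046 and 42994832 per sample, with 969124 to 1143763 tags on inclusion junctions and 56748 to 66488 on skipping junctions of tandem blocks. Of 8 radial glia markers, *Fabp7* and *Slc1a3* were called lower in *Qk* cKO (edgeR's quasi-likelihood test, log2 fold change -0.45, FDR 0.015, and -0.23, FDR 0.089). The others were not called: *Pax6*, *Hes1* and *Nes* were slightly higher (0.077, 0.082 and 0.040), and *Sox2*, *Hes5* and *Vim* lower (-0.29, -0.19 and -0.012). The summed RPKM of the list was 1633 and 1512 in control against 1329 and 1267 in *Qk* cKO. Most of this fall was *Fabp7* itself, at 989 and 901 in control against 703 and 667 in *Qk* cKO. All 6 hypothalamic and diencephalic markers were lower in *Qk* cKO and 5 were called, with a summed RPKM of 2.09 and 6.74 against 0.635 and 0.540. The marker not called was *Rax* (log2 fold change -3.32, FDR 0.444). Neuronal markers summed to an RPKM of 1176 to 1286 per sample, and *Rax*, of the hypothalamic list, was listed at 0 in *Qk* cKO replicate 1. No marker of intermediate progenitors, neurons (7 of 8 listed were measured), subpallium, endothelium, microglia, meninges or blood was called, and the part of these markers in the splicing values was not tested.

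The exons of the blocks that the results turn on are shown first, read from GENCODE M21 transcripts on mm10 (GRCm38), 5′ to 3′ on the strand of the gene and joined as in the spliced block. The first exon is in lower case, the second in capitals and, in a block of 3, the last again in lower case. In *Erbb2ip* the exons of 144 and 117 nt lie at chr13:103830188-103830331 and chr13:103827907-103828023 on the minus strand, and a 207-nt exon completes the block downstream. The *Etl4* exons of 120 and 78 nt lie at chr2:20801542-20801661 and chr2:20805585-20805662 on the plus strand, before a 1599-nt exon. The *Epb4.1* block has exons of 57, 42 and 63 nt at chr4:131964131-131964187, chr4:131963929-131963970 and chr4:131962924-131962986 on the minus strand. The *Prom1* exons of 24 and 69 nt lie at chr5:44001270-44001293 and chr5:44000777-44000845, and the *Lphn2* exons of 129 and 18 nt at chr3:148821280-148821408 and chr3:148820451-148820468, both on the minus strand. The *Ptprk* exons of 36 and 12 nt lie at chr10:28562107-28562142 and chr10:28564095-28564106, and the *Mark3* exons of 27 and 45 nt at chr12:111651958-111651984 and chr12:111653390-111653434, both on the plus strand. The *Clip1* exons of 33 and 105 nt lie at chr5:123638956-123638988 and chr5:123635174-123635278 on the minus strand. All of these exons are annotated as coding.
Erbb2ip, 144 and 117 nt: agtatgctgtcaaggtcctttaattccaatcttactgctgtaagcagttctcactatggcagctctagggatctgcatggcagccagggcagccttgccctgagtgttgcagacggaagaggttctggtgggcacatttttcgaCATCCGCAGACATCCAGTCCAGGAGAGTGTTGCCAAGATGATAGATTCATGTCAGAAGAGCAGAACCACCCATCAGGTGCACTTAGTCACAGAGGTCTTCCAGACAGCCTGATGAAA
Etl4, 120 and 78 nt: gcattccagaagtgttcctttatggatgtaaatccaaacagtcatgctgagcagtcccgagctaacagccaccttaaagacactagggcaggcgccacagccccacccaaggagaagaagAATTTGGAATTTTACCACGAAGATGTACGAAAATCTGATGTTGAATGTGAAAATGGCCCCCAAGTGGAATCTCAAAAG
Epb4.1, 57, 42 and 63 nt: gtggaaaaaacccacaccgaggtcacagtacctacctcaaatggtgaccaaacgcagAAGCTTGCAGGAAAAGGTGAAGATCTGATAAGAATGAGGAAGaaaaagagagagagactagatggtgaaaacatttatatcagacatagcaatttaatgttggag
Prom1, 24 and 69 nt: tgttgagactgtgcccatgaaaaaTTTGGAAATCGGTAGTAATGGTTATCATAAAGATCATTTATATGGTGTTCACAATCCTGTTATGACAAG
Lphn2, 129 and 18 nt: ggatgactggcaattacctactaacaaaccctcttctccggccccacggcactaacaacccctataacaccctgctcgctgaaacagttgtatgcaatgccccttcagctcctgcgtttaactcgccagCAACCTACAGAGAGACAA
Ptprk, 36 and 12 nt: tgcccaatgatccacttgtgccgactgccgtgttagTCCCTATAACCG
Mark3, 27 and 45 nt: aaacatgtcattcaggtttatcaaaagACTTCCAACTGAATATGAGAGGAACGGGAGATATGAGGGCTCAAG
Clip1, 33 and 105 nt: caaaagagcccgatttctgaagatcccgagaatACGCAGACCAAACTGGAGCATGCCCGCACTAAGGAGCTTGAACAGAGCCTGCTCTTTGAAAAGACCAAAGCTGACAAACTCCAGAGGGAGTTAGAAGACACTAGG
The *Rps24* block has 2 very short exons, at chr14:24494052-24494069 and chr14:24495430-24495449 on the plus strand, and is annotated as partly coding.
Rps24, exon of 18 nt: aaatgaaatacctagcag
Rps24, exon of 20 nt: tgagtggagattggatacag

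Inclusion of a block of n exons was the mean number of tags on its n + 1 inclusion junctions over that mean plus the skipping tags, where a tag is the unit counted by the authors' software. Δ*I* is inclusion in control minus inclusion in *Qk* cKO, so a negative value means that the block was kept more often after deletion. A block was called changed at p below 0.01 in Fisher's exact test on isoform tags summed over embryos, FDR below 0.1 over the tested events of all 6 types, and Δ*I* of at least 0.1 in size. By this rule 51 of the 841 tested tandem events changed (6.06%). Of the tested events of all types 3.12% did, and of the tested single cassette exons 4.63%. Inclusion was higher in control in 28 (3.33%, against 1.56% of all types) and higher in *Qk* cKO in 23 (2.73%, against 1.57%). The 51 events lie in 34 genes. With 1 event per locus, chosen by coverage and not by its difference, 31 of 536 loci changed, 20 higher in control and 11 higher in *Qk* cKO. The 4 embryos did not overlap between groups in 48 of the 51 events and in all 31 loci, but neither did they in 36.9% of all tested tandem events and 37.9% of events of all types, so with 2 embryos per group this alone says little.

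**Figure D1:**
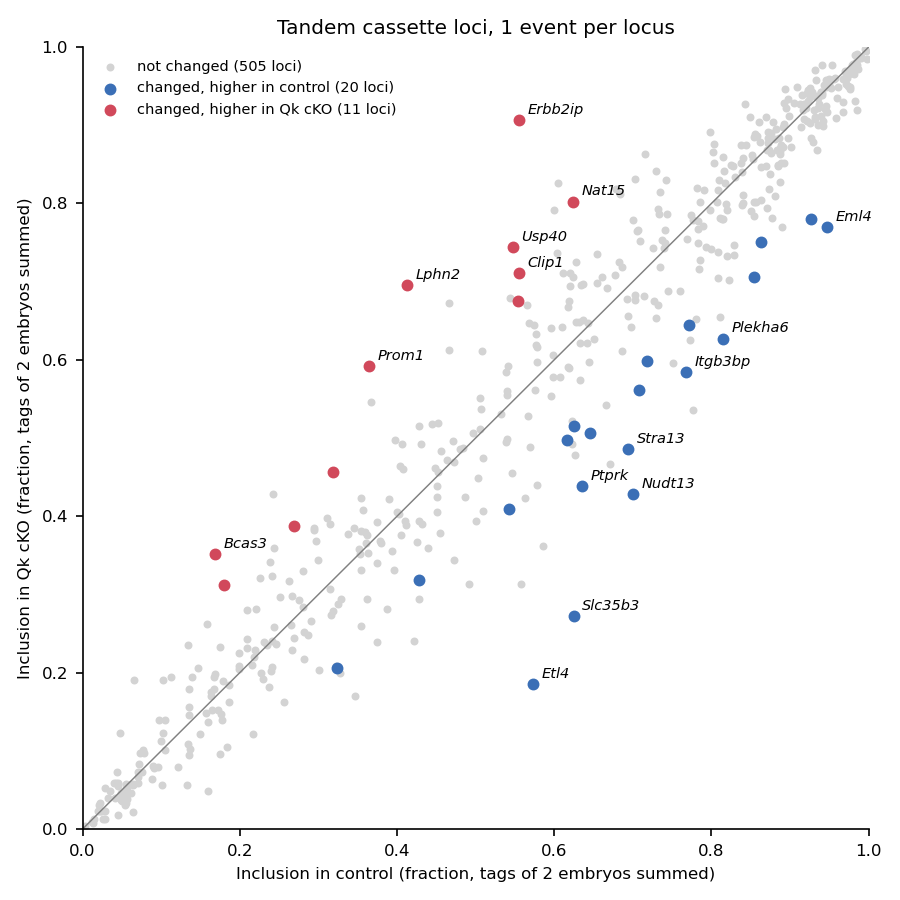
Inclusion of the representative block of each of 536 tandem loci in control (x axis) and *Qk* cKO (y axis), as fractions from the tags of both embryos of a group. Grey points are the 505 loci that were not changed, blue points the 20 loci higher in control and red points the 11 loci higher in *Qk* cKO, which lie away from the diagonal at all levels of inclusion.

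Fisher's exact test takes tags as independent and leaves out variation between embryos. The variance between the embryos of a group was 1.92 times the binomial variance for tandem events in control and 1.82 times in *Qk* cKO. The edgeR quasi-likelihood test asks whether isoform use depends on genotype and does use the embryos. This interaction test called 9 tandem events (1.07%, against 0.704% of events of all types) in 5 loci: *Erbb2ip*, *Etl4*, *Lphn2*, *Rps24* and *Synrg*. Of the 31 changed loci, 4 were called by it. When 1 embryo at a time was left out, 8 of the 26 changed loci named below kept the call each time (*Epb4.1*, *Erbb2ip*, *Etl4*, *Lphn2*, *Prom1*, *Rps24*, *Stra13* and *Tbp*). The direction held in the 25 that could still be tested. This was fixed in advance, because the embryos of every changed locus did not overlap between groups, so it is no support. Leaving out control replicate 1 or *Qk* cKO replicate 1 removed the most calls, 12 of 25 each, followed by control replicate 2 with 10 and *Qk* cKO replicate 2 with 6.

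Of tested blocks of 2, 3 and 4 exons, 6.13%, 5.47% and 7.14% changed. The changed loci had a median block length of 203 nt against 215 nt in all 536 loci, of which 535 could be placed on the annotation. The block kept the reading frame in 15 of 31 changed loci (48.4%) and in 285 of all loci (53.3%). Among loci whose exons are all annotated as coding, it did so in 13 of 19 changed loci (68.4%) and in 191 of 272 (70.2%). An exon of 30 nt or less was present in 7 of 31 changed loci (22.6%) and in 61 loci overall (11.4%). These shares are descriptions, and the changed loci are part of the whole.

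In genes of membrane receptors, adhesion and polarity, 7 of 18 tested loci changed, 4 higher in control and 3 higher in *Qk* cKO. The host gene lists were drawn up with earlier results of these data known, so the high share in this and the following lists is not evidence about the lists. *Erbb2ip* (gene 59079) encodes Erbin, a scaffold protein that binds ERBB2 at the basolateral membrane. Inclusion of its 3-exon block was 0.501 and 0.630 in control and 0.927 and 0.887 in *Qk* cKO, with 95% Wilson intervals of 0.441 to 0.561, 0.554 to 0.700, 0.877 to 0.958 and 0.831 to 0.926. Both *Qk* cKO embryos lay far above both controls (Δ*I* -0.352, Fisher's exact test, FDR 5.52e-25, edgeR interaction FDR 0.0035). Skipping of the whole block gave 82.3 and 44 tags in control and 11 and 18 in *Qk* cKO. The gene holds 7 of the 51 changed events, which share these exons and are not independent.

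The exons of the *Erbb2ip* block did not move equally. Tags joining the preceding exon to the 144-nt exon went from 40 and 35.4 in control to 131 and 118 in *Qk* cKO. Tags joining the 144-nt to the 117-nt exon went from 22 and 27.2 to 128 and 111. Tags that passed from the preceding exon straight to the 117-nt exon went from 123 and 93.6 to 53.2 and 71. Among transcripts counted up to the 207-nt exon, both exons were kept in 13.98% and 19.4% of control tags and in 67.0% and 59.6% of *Qk* cKO tags. The 117-nt exon alone was kept in 78.2% and 67.0% against 27.8% and 38.2%. The main form in control thus held the 117-nt exon without the 144-nt exon printed above, and the main form in *Qk* cKO held both. A variant of the second exon of 310 nt, which is part of the representative event, was joined to the 144-nt exon by at most 3.21 tags per sample.

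*Lphn2* (gene 99633) encodes latrophilin 2, an adhesion G-protein coupled receptor. Inclusion was 0.450 and 0.371 in control and 0.744 and 0.654 in *Qk* cKO (Δ*I* -0.283, Fisher's exact test, FDR 1.04e-11, edgeR FDR 0.0253). The groups were well apart, but the exons were seldom joined: only 5.04 to 14 tags per sample lay on the junction of the 129-nt and 18-nt exons. The 129-nt exon alone was kept in 67.5% and 64.6% of tags in control and in 88.4% and 84.4% in *Qk* cKO. Tested as a single exon, the 129-nt exon changed as well (Δ*I* -0.204, Fisher's exact test, FDR 5.4e-12, edgeR FDR 0.0246).

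*Prom1* (gene 19126) encodes prominin-1, also called CD133, a protein of plasma membrane protrusions that marks neural progenitors. Inclusion was 0.375 and 0.352 in control and 0.556 and 0.631 in *Qk* cKO (Δ*I* -0.227, Fisher's exact test, FDR 1.23e-05, edgeR FDR 0.104). In this gene the exons were kept or skipped as a pair. Both exons were kept in 37.7% and 35.4% of control tags and 56.3% and 59.6% of *Qk* cKO tags, neither in 57.5% and 62.2% against 39.9% and 33.7%, and either exon alone in at most 5.1% of any sample. The 93 nt of the pair keep the reading frame.

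*Ptprk* and *Ptprs* encode receptor-type tyrosine phosphatases, and both moved the other way. The 36-nt and 12-nt *Ptprk* exons (gene 19272) were included at 0.635 and 0.637 in control and 0.347 and 0.528 in *Qk* cKO (Δ*I* 0.197, Fisher's exact test, FDR 0.0345). The call was lost without *Qk* cKO replicate 1, at a Δ*I* of 0.108, and without control replicate 1, at 0.199. The 4-exon block of *Ptprs* (gene 19280, chr17:56425327-56429157, 306, 194, 118 and 600 nt, 1218 nt in all) was included at 0.535 and 0.549 in control and 0.411 and 0.407 in *Qk* cKO (Δ*I* 0.133, FDR 0.028). It was the only changed locus with 4 exons, and its embryos lay close together within each group, but the call was lost without control replicate 2 (0.126) or *Qk* cKO replicate 1 (0.135).

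*Itgb3bp* (gene 67733, chr4:99798696-99802232), which encodes an integrin β3-binding protein also found at kinetochores, was included at 0.790 and 0.737 in control and 0.630 and 0.553 in *Qk* cKO (Δ*I* 0.184, Fisher's exact test, FDR 0.0564). It kept the call only when *Qk* cKO replicate 1 was the embryo left out, with Δ*I* of 0.153, 0.206 and 0.137 without control replicate 1, control replicate 2 and *Qk* cKO replicate 2. *Plekha6*, the remaining changed locus of the list, had a Δ*I* of 0.188. For the amyloid precursor gene *App* (chr16:85040251-85043743), whose 168-nt and 57-nt exons had the highest coverage among unchanged loci of the list, inclusion was 0.0678 and 0.0613 in control and 0.0473 and 0.0657 in *Qk* cKO (Δ*I* 0.00831, FDR 0.0723). The *App* embryos overlapped between groups.

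**Figure D2:**
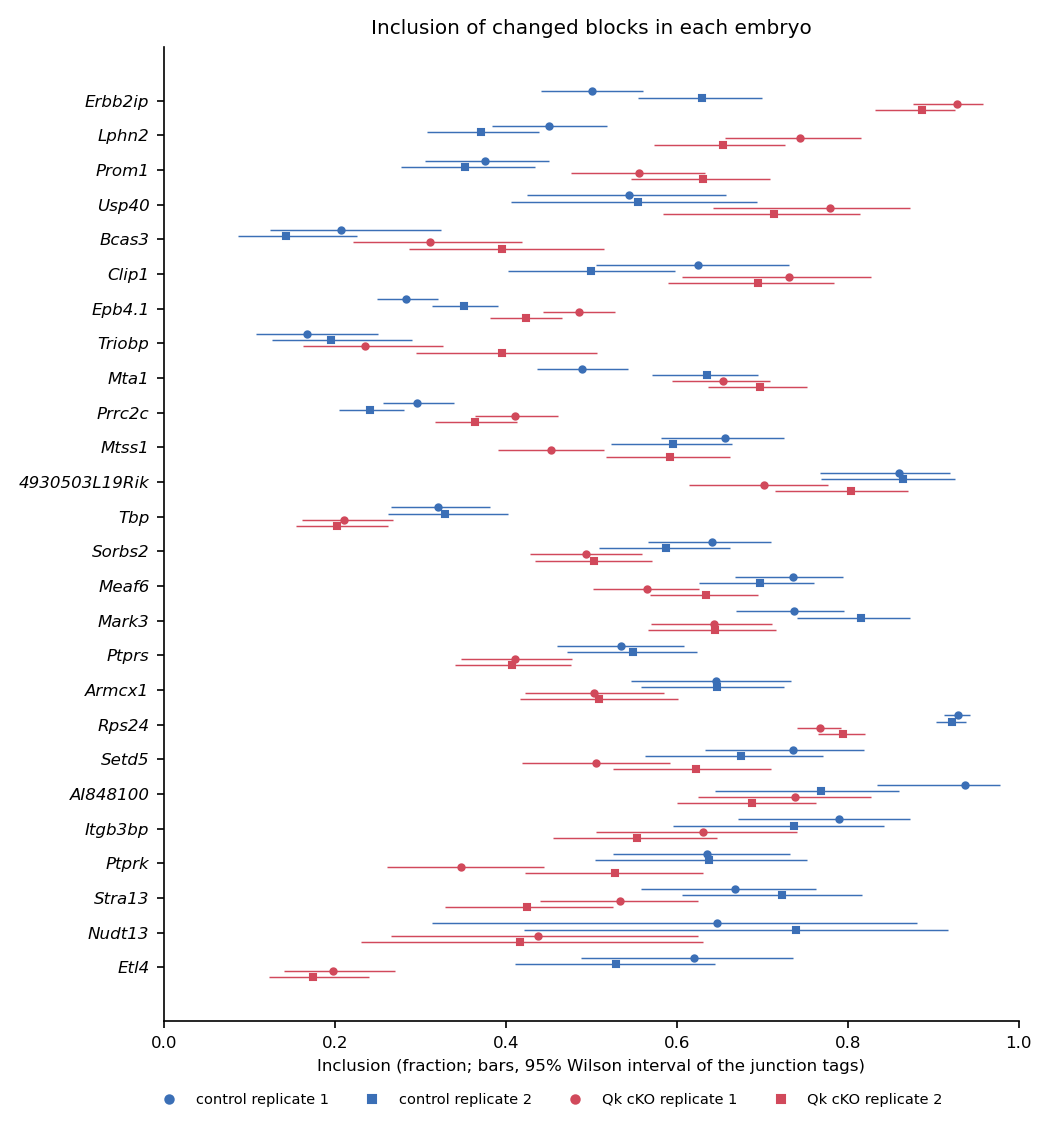
Inclusion of the block (x axis, fraction) in each of the 4 embryos for the 26 changed loci named with their values, with bars for the 95% Wilson interval of the junction tags. Loci higher in *Qk* cKO are at the top, and the intervals are widest in *Nudt13*, which has the fewest tags.

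Of 26 tested loci in cytoskeleton and centrosome genes, 9 changed, 5 higher in control and 4 higher in *Qk* cKO. *Etl4* (gene 208618) had the largest Δ*I* of all 31 changed loci. Inclusion of its block of 120, 78 and 1599 nt was 0.620 and 0.529 in control and 0.198 and 0.174 in *Qk* cKO (Δ*I* 0.388, Fisher's exact test, FDR 4.4e-12, edgeR FDR 0.00845). Skipping tags went from 15 and 20 to 45.8 and 49.9, while tags into the 120-nt exon went from 40 and 38 to 13.2 and 6.05. Tested as a single exon, the 120-nt exon went from 0.697 and 0.604 to 0.182 and 0.1001. A second *Etl4* event starts from the 120-nt exon and counts only the 78-nt and 1599-nt exons. It changed in the opposite direction, from 0.400 and 0.430 to 0.597 and 0.704 (Δ*I* -0.235, Fisher's exact test, FDR 0.0141, edgeR FDR 0.339), on at most 29 skipping tags per sample. The whole block was thus kept less often in *Qk* cKO. Of the inclusion junctions of the second event, only that of the 120-nt and 78-nt exons needs the 120-nt exon. It had 8 and 6 tags in control and 2 and 2 in *Qk* cKO. The others can also come from transcripts without the 120-nt exon. The opposite sign therefore does not show how often transcripts with that exon passed over the next pair.

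*Epb4.1* (gene 269587) encodes protein 4.1R, which links spectrin and actin to the membrane. Inclusion of its block was 0.284 and 0.351 in control and 0.485 and 0.423 in *Qk* cKO (Δ*I* -0.138, Fisher's exact test, FDR 2.44e-07, edgeR FDR 0.183). Summed over embryos, every junction of the block had more tags in *Qk* cKO. They went from 85 and 100 to 159 and 108 between the 57-nt and 42-nt exons and from 83 and 110 to 160 and 129 between the 42-nt and 63-nt exons. The inner junctions had 0.97 tags per outer tag, so the 3 exons were mostly joined to each other. All 162 nt are coding and keep the frame.

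*Mark3* (gene 17169) encodes a microtubule-affinity regulating kinase. Its block of 27 and 45 nt was included at 0.737 and 0.816 in control and 0.643 and 0.645 in *Qk* cKO (Δ*I* 0.128, Fisher's exact test, FDR 0.054), and the call was lost without control replicate 2 (0.0935) or either *Qk* cKO embryo (0.127 and 0.128). The junction between the exons changed far more than the block. On it lay 45 and 34.1 tags in the control embryos but 11 and 14.1 in *Qk* cKO, so inclusion measured by this junction alone went from 0.566 to 0.220 over the summed samples (Fisher's exact test, FDR 3.8e-06). The 45-nt exon alone was kept in 63.4% and 74.3% of control tags and 78.4% and 74.99% of *Qk* cKO tags, and both exons in 19.5% and 15.9% against 4.1% and 6.3%. The form with fewer tags in *Qk* cKO was the one that holds the 27-nt exon, and the 45-nt exon tested alone did not pass the rule (Δ*I* 0.0448, FDR 0.133).

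**Figure D3:**
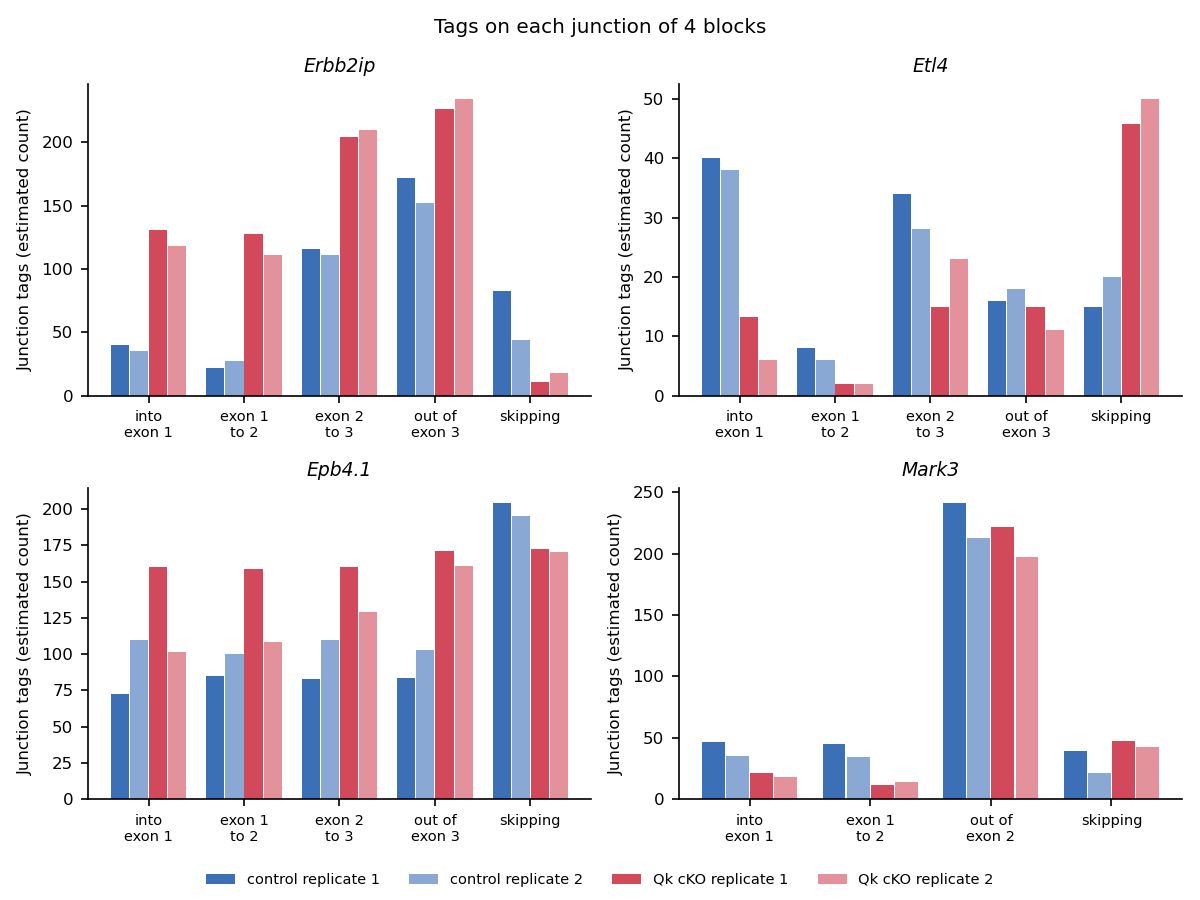
Estimated counts of tags (y axis, linear) on each junction of the blocks of *Erbb2ip* (144, 117 and 207 nt), *Etl4*, *Epb4.1* and *Mark3* in each embryo; control in blue and *Qk* cKO in red, with replicate 2 in the lighter shade. In *Erbb2ip* all inclusion junctions are higher and skipping is lower in *Qk* cKO, in *Etl4* tags into exon 1 are lower and skipping is higher, and in *Mark3* the junction out of exon 2 is high in every embryo while the junctions of exon 1 are lower in *Qk* cKO.

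*Clip1* (gene 56430) encodes CLIP-170, a protein that tracks growing microtubule plus ends. Inclusion was 0.625 and 0.5 in control and 0.731 and 0.695 in *Qk* cKO (Δ*I* -0.155, Fisher's exact test, FDR 0.0536), and the call was lost without control replicate 2, at a Δ*I* of -0.0856, and without *Qk* cKO replicate 1, at -0.140. The 33-nt and 105-nt exons were joined by at most 1 tag in any sample. The 105-nt exon alone was kept in 82.6% and 73.6% of control tags and 90.5% and 86.8% of *Qk* cKO tags. The event is annotated as a block in 2 transcripts, but in this tissue the tags counted were those of the 105-nt exon.

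*Bcas3* (gene 192197, chr11:85814000-85822112) was included at 0.207 and 0.143 in control and 0.312 and 0.395 in *Qk* cKO (Δ*I* -0.182, Fisher's exact test, FDR 0.0109), and lost the call without control replicate 2 (-0.144) or *Qk* cKO replicate 2 (-0.143). *Sorbs2* (gene 234214, chr8:45782802-45785325), an SH3-domain adaptor of actin structures, was included at 0.641 and 0.588 in control and 0.494 and 0.503 in *Qk* cKO (Δ*I* 0.118, FDR 0.0224), and lost it without control replicate 1 (0.0899) or *Qk* cKO replicate 1 (0.114). *Triobp* (gene 110253, chr15:78976467-78978751) encodes an actin-bundling protein and was included at 0.167 and 0.195 in control and 0.235 and 0.396 in *Qk* cKO (Δ*I* -0.132, FDR 0.0159). Its call was lost without *Qk* cKO replicate 2 (-0.0547) or control replicate 1 (-0.117). The membrane-bending and actin-binding protein *Mtss1* (gene 211401, chr15:58947326-58948442) was included at 0.657 and 0.596 in control and 0.452 and 0.591 in *Qk* cKO (Δ*I* 0.111, FDR 0.0418), and Δ*I* was 0.0339 without *Qk* cKO replicate 1 and 0.0810 without control replicate 1, with the call lost in both cases. *Eml4*, a microtubule-associated protein, had a Δ*I* of 0.177. Blocks of *Dctn1*, a dynactin subunit, and *Ttc3* changed in an event that does not represent its locus, with Δ*I* of -0.115 and -0.110. *Add1*, adducin 1, had the highest coverage among unchanged loci of this list (chr5:34629136-34630284) and was included at 0.378 and 0.434 in control and 0.391 and 0.361 in *Qk* cKO (Δ*I* 0.0296, FDR 0.632). Its inner and last junctions each held at most 2.01 tags per sample, beside 436 to 479 on the junction into the 37-nt exon. The *Add1* values are thus almost wholly those of the 37-nt exon.

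Among 13 tested loci in chromatin and transcription genes, 6 changed, 5 of them higher in control. *Stra13* (gene 20892, chr11:120711844-120712712), also called *Cenpx*, encodes a histone-fold protein of centromeres and DNA repair. Its block of 273 and 52 nt was included at 0.669 and 0.723 in control and 0.533 and 0.424 in *Qk* cKO (Δ*I* 0.208, Fisher's exact test, FDR 0.00191, edgeR FDR 0.254). The TATA-binding protein gene *Tbp* (gene 21374, chr17:15501154-15501357) was included at 0.321 and 0.329 in control and 0.210 and 0.203 in *Qk* cKO (Δ*I* 0.117, FDR 0.00531). The *Tbp* exons of 49 and 46 nt lie outside the annotated coding sequence, and the embryos of each group differed by less than 0.01. The first of them alone was kept in 36.6% and 37.8% of control tags and 30.1% and 25.3% of *Qk* cKO tags, and both in 10.9% and 9.2% against 6.8% and 8.3%.

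*Meaf6* (gene 70088, chr4:125107517-125107709) encodes a subunit of histone acetyltransferase complexes. Inclusion was 0.736 and 0.697 in control and 0.565 and 0.634 in *Qk* cKO (Δ*I* 0.119, Fisher's exact test, FDR 0.0264), and the call was lost without either control embryo (0.0983 and 0.137) or *Qk* cKO replicate 1 (0.0834). Transcripts with neither exon went from 15.8% and 14.3% to 24.997% and 21.1%, and the 30-nt exon alone remained the main form at 60.1% to 71.2% of tags in every sample. *Setd5* (gene 72895, chr6:113105917-113109616), a SET-domain protein, was included at 0.736 and 0.676 in control and 0.506 and 0.622 in *Qk* cKO (Δ*I* 0.147, FDR 0.0914). The *Setd5* call was lost without *Qk* cKO replicate 1 (0.0858) or either control embryo (0.114 and 0.175). *Trp53bp1*, of the DNA damage response, had a Δ*I* of 0.109.

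*Mta1* (gene 116870, chr12:113133541-113134812) encodes a subunit of the NuRD complex and was the exception in direction. Its block of 36 and 12 nt was included at 0.489 and 0.635 in control and 0.654 and 0.698 in *Qk* cKO (Δ*I* -0.122, Fisher's exact test, FDR 0.00695). Control replicate 2 was close to the *Qk* cKO embryos, and the call was lost without control replicate 1, at a Δ*I* of -0.0396, and without *Qk* cKO replicate 2, at -0.1004. *Mllt10* (gene 17354), a cofactor of the histone methyltransferase DOT1L, held 4 changed events that share exons, with Δ*I* of 0.101 to 0.192, but its representative block did not pass (0.256 and 0.405 in control, 0.252 and 0.165 in *Qk* cKO, Δ*I* 0.113, FDR 0.124). It passed without control replicate 1, at a Δ*I* of 0.196, and without *Qk* cKO replicate 1, at 0.157. *Nfib*, a transcription factor, was included alike in every embryo, at 0.205 and 0.235 in control and 0.209 and 0.231 in *Qk* cKO (chr4:82310303-82323710, Δ*I* -0.00173, FDR 0.848), with the highest coverage among unchanged loci of the list.

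**Figure D4:**
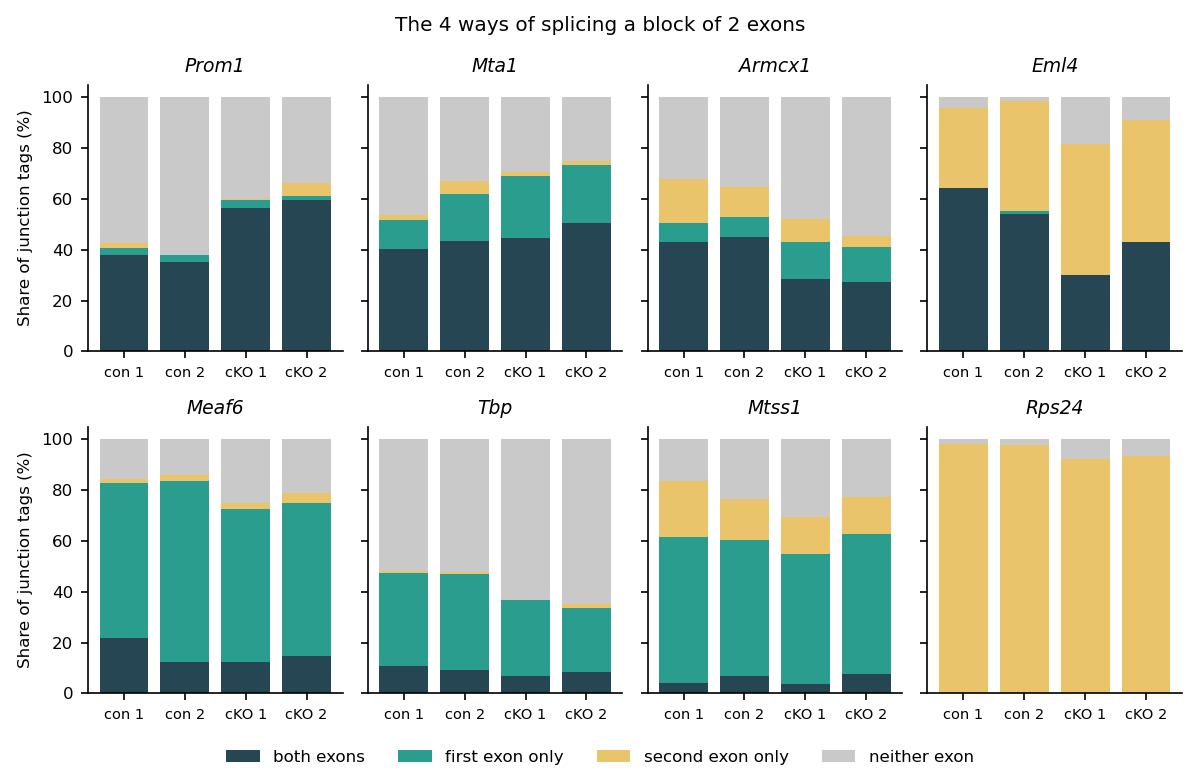
Share of junction tags (y axis, percent) for the 4 ways of splicing a block of 2 exons in each of 2 control (con) and 2 *Qk* cKO (cKO) embryos, for the 8 changed loci in which each form has a junction of its own. *Prom1* has mostly tags for both exons or neither, in *Eml4* and *Armcx1* the form with both exons has a lower share in *Qk* cKO, and in *Rps24* almost all tags hold the second exon alone.

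In RNA and translation genes, 2 of 8 tested loci changed, 1 in each direction. *Rps24* (gene 20088) encodes a protein of the small ribosomal subunit and had the most tags of the changed loci on any junction. Inclusion of its block was 0.929 and 0.922 in control and 0.768 and 0.794 in *Qk* cKO (Δ*I* 0.147, Fisher's exact test, FDR 9.88e-36, edgeR FDR 0.000417). Skipping tags went from 79 and 68 to 201 and 148. The 2 short exons printed above were almost never joined, by 3 to 7 tags per sample. The 20-nt exon alone was kept in 98.0% and 97.8% of control tags and 92.0% and 93.4% of *Qk* cKO tags. Tags into the 18-nt exon went the other way, from 36 and 32 to 125 and 104, but its single-exon event did not pass (FDR 1). Ribosomal protein genes have processed pseudogenes, so these tags depend on how the authors' alignment assigned them. The 20-nt exon tested alone had a Fisher FDR of 9.63e-39 and a Δ*I* of 0.0576, under the 0.1 needed for a call.

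*Prrc2c* (gene 226562, chr1:162674103-162675841), an RNA-binding protein of stress granules, was included at 0.296 and 0.241 in control and 0.411 and 0.363 in *Qk* cKO (Δ*I* -0.119, Fisher's exact test, FDR 0.00248), and the call was lost without control replicate 2 (-0.0918) or *Qk* cKO replicate 1 (-0.0943). Its 237-nt exon alone went from 45.8% and 49.8% to 62.6% and 58.1% of tags, while the form with both exons held 3.4% to 4.4% in every sample. *Fxr1*, a relative of the fragile X protein (chr3:34064974-34068252), was the unchanged locus of the list with the highest coverage, at 0.181 and 0.223 in control and 0.187 and 0.227 in *Qk* cKO (Δ*I* -0.00633, FDR 1). Its exons were joined by 4 to 7.16 tags per sample, beside 135 to 162 on the junction out of the 92-nt exon.

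Of the 471 loci in all other genes 7 changed, 5 higher in control. The deubiquitinase gene *Usp40* (gene 227334, chr1:87968396-87974134) was included at 0.543 and 0.555 in control and 0.779 and 0.713 in *Qk* cKO (Δ*I* -0.196, Fisher's exact test, FDR 0.0465), and the call was lost without control replicate 1 (-0.190) or *Qk* cKO replicate 1 (-0.165). *Armcx1* (gene 78248, chrX:134718370-134718818), an X-linked armadillo-repeat protein of mitochondria, was included at 0.645 and 0.646 in control and 0.504 and 0.509 in *Qk* cKO (Δ*I* 0.140, FDR 0.0528), and kept the call only when *Qk* cKO replicate 2 was the embryo left out (Δ*I* 0.137 to 0.141 without each of the others). Both *Armcx1* exons, which hold no coding sequence, were kept in 43.2% and 45.2% of control tags and 28.6% and 27.3% of *Qk* cKO tags. *AI848100* (gene 226551, chr1:161837719-161838822), newer symbol *Suco*, was included at 0.938 and 0.769 in control and 0.738 and 0.688 in *Qk* cKO (Δ*I* 0.147, FDR 0.0795), and lost the call without control replicate 1 (0.0627) or *Qk* cKO replicate 2 (0.115). *4930503L19Rik* (gene 269033) was included at 0.860 and 0.865 in control and 0.702 and 0.804 in *Qk* cKO (Δ*I* 0.112, FDR 0.0894), and lost the call without *Qk* cKO replicate 1 (0.0588) or either control embryo (0.114 and 0.110).

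*Nudt13* (gene 67725, chr14:20295071-20300679), a Nudix hydrolase gene, held 3 changed events, but on 2 to 9 skipping tags per sample. The junction from the preceding exon into its block had 0 tags in every embryo, so entry into the block from that exon was not seen. The call was lost with junction tags only (Fisher's exact test, FDR 0.329). Inclusion was 0.647 and 0.739 in control and 0.437 and 0.417 in *Qk* cKO (Δ*I* 0.272, Fisher's exact test, FDR 0.0749), and the Wilson intervals of 0.313 to 0.881 and 0.421 to 0.917 in control overlapped those of 0.266 to 0.625 and 0.230 to 0.630 in *Qk* cKO. *Slc35b3*, a nucleotide-sulfate transporter, and *Nat15* (newer symbol *Naa60*), an N-terminal acetyltransferase, changed with Δ*I* of 0.353 and -0.178. *Synrg*, a trafficking protein that binds the clathrin adaptor AP-1, was called by edgeR (FDR 0.0542) but its rarely used block (chr11:83985249-83986851) went from 0.0590 and 0.0708 to 0.0192 and 0.0237, a Δ*I* of 0.0434. The junction out of its 38-nt exon had 0 tags in every embryo. These values therefore rest mostly on tags into the 303-nt exon, 18 and 25 in control and 7 and 11 in *Qk* cKO. Clathrin light chain A, *Clta* (chr4:44030215-44031435), had the highest coverage of all tested tandem loci, 2438 tags, and was included at 0.225 and 0.206 in control and 0.212 and 0.208 in *Qk* cKO (Δ*I* 0.00518, FDR 0.404).

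Whether a block moved as a block was read from the junctions between its exons, since only these show exons of the block joined to each other. Inclusion was recalculated from the inner junctions alone, a measure added after the data were seen. By this measure 33 tandem events in 19 loci changed, 3.92% of the 841 tested. Of the 31 changed loci, 30 moved the same way by the inner junctions, 23 of them by at least 0.1 and 12 past the test. Both measures use the same skipping tags, and the inner tags are part of the block's inclusion tags. The shared direction is therefore not independent of the block's own call. The inner difference was under 0.1 in size in 8, among them *Clip1*, *Prrc2c*, *Lphn2*, *Rps24* and *Trp53bp1*, and in *Clip1* it had the opposite sign (0.0177, Fisher's exact test, p = 1). The median number of inner tags per outer tag was 0.469 in changed loci and 0.378 in all 536. It was below 0.2 in 6 changed loci (19.4%) and in 209 loci overall (39.0%), so in many annotated blocks the exons were seldom joined in this tissue.

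**Figure D5:**
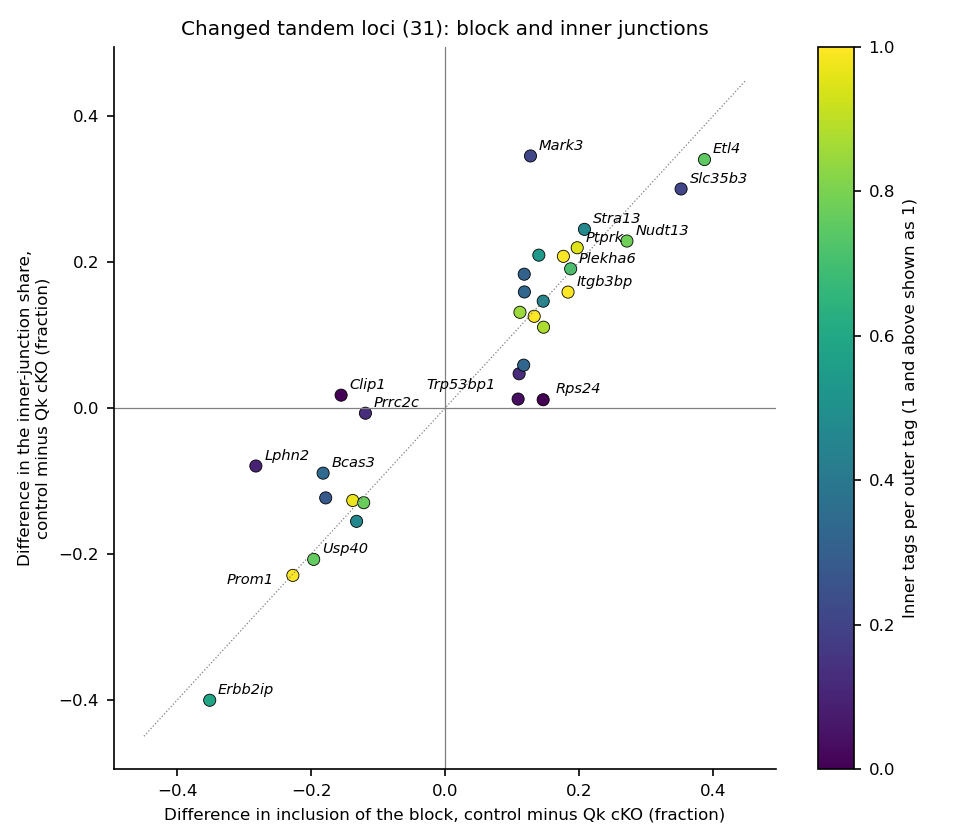
Difference in inclusion of the block (x axis) and in inclusion by the inner junctions alone (y axis), both as control minus *Qk* cKO in fractions, for the 31 changed tandem loci; the dotted line marks equal values and the colour gives inner tags per outer tag, from 0 (dark) to 1 and above (yellow). Loci whose exons were often joined lie near the line, while *Rps24*, *Trp53bp1*, *Prrc2c*, *Clip1* and *Lphn2* lie near 0 on the y axis and *Mark3* lies far above the line.

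The exons of a block can also be followed singly where the files count them as cassette exons of their own. Of the 31 changed loci, 27 had such an exon with enough tags, 37 exons in all, and 19 of them changed, where 4.63% of all tested single cassette exons did. The measures share the tags of the block, so this is not independent of the block's own call. In 36 exons the difference had the sign of the block, and the 18-nt exon of *Rps24* was the exception. In 16 loci at least 1 exon changed alone and in 11 none did. Both exons changed alone in *Prom1* (Δ*I* -0.211 and -0.178), *Mta1* (-0.149 and -0.109) and *Eml4* (0.291 and 0.138).

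The level of the host genes was compared with edgeR's quasi-likelihood test over all 18834 genes, of which 0.584% were called. None of the 34 genes with a changed tandem event was called, and 3 of them had an unadjusted p below 0.05. DESeq2 called 0 of them too, with 3 at an unadjusted p below 0.05, and 1 was called by edgeR without *Qk* cKO replicate 1. The lowest FDR was that of *Erbb2ip*, 0.144, with RPKM of 20.02 and 19.99 in control and 21.5 and 24.99 in *Qk* cKO (log2 fold change 0.23, SE 0.060). *Prom1* had RPKM of 18.2 and 17.4 in control and 20.4 and 19.9 in *Qk* cKO (log2 fold change 0.20, FDR 0.249). In *Etl4* and *Rps24*, whose blocks changed most clearly in the other direction, the log2 fold changes were 0.05 and -0.03. The median log2 fold change of the 34 genes was 0.04, beside -0.0025 for all genes tested. Of all 513 host genes 2 were called, *Myo9b* (-0.25, FDR 0.063) and *Pde7a* (0.24, FDR 0.097), and neither holds a changed tandem event.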

How the data were processed

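Cortical mRNA of 2 control and 2 *Qk* cKO embryos was sequenced as polyA-selected libraries with paired reads. OLego was used by the authors for alignment to mm10 and Quantas for quantification. The values the authors deposited are an estimated count of tags, not always whole, per isoform and junction of an event, and per gene an estimated count with its RPKM. Whether the embryos share a litter is not stated per sample, and edgeR p-values measure the spread of 2 embryos per group, while Fisher p-values cover tag counts only.

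Events were tested at a coverage of at least 20, the smallest row or column sum of junction tags by group. Fisher's exact test (two-sided) was run on rounded isoform tags summed over replicates with scipy 1.17.1, and Benjamini-Hochberg adjustment covered 11500 events of 6 types. The edgeR 4.0.16 interaction test used a baseline for each sample. Gene tags were rounded and tested with the edgeR quasi-likelihood test after TMM, in genes with at least 1 tag. Wilson intervals cover counting error only, and PCR copies are not independent molecules. Positions and coding parts came from GENCODE M21 on mm10 (840 of 841 events placed).

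Loci were named with values if changed with coverage of at least 50 and non-overlapping embryos (at most 15 per direction), called by edgeR, changed with 4 exons, in a gene with 3 changed events, or unchanged with the highest coverage of a host gene list. Members, lists and rules were chosen with earlier results of these data known. Fisher's exact test and the edgeR tests of events and genes were checked on simulated data. With the spread between embryos included, Fisher's test without the Δ*I* limit made more false than true calls there, and the edgeR test of events made few. Alternatives were junction tags only, coverage of 10 or 50, edgeR or DESeq2 1.42.0, a replicate block, adjustment within the event type, the mean of replicates, a Δ*I* of 0.2 and each sample left out. Inner junctions, scaled tags and the alternatives for single exons were chosen after seeing the data.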

Additional observations from a re-analysis of the deposited data

How the results depend on the processing

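The count of changed tandem events, 51 in 31 loci, stayed within 1.5 times under junction tags only, other coverage limits, adjustment within the type, means of replicates and single events per set of identical tags. It fell to 8 events and 4 loci with the edgeR interaction test, to 14 and 7 at a Δ*I* of at least 0.2, and, in alternatives chosen after seeing the data, to 33 and 19 with inner junctions only and to 14 and 6 with tags divided by the replicate variance ratio. With each sample left out in turn it was 34 to 41 events and 18 to 26 loci, lowest without *Qk* cKO replicate 1. These totals include new calls. Of the 51 events and 31 loci themselves, only 27 to 32 events and 14 to 20 loci were called again. The 14 loci were those without control replicate 1 or without *Qk* cKO replicate 1. Changed single exons went from 19 to 3 with edgeR. Called host genes, 2 of 513, were 5 with a replicate block, 2 with DESeq2, 0 with filterByExpr in edgeR (66 at an unadjusted p below 0.05) and 0 to 11 with a sample left out (42 and 52 at an unadjusted p below 0.05 where 0 were called). The replicate numbers are labels only: over 841 events the deviations correlated at 0.00308 between samples of 1 number, and with the replicate block (Cochran-Mantel-Haenszel) there were 44 events and 27 loci. Of the 26 changed named loci, *AI848100*, *Setd5*, *4930503L19Rik* and *Nudt13* lost the call under that block. With inner junctions *Clip1* reversed to 0.0177. The unchanged loci, near 0, changed sign as follows: with inner junctions *App* to -0.00281, *Clta* to -0.0082 and *Nfib* to 0.0134, and with a sample left out *App* (range -0.00118 without *Qk* cKO replicate 1 to 0.0172), *Clta* (-0.00456 without control replicate 1 to 0.0143), *Fxr1* (-0.0283 to 0.0182 without control replicate 1, and 0.0117 without *Qk* cKO replicate 2) and *Nfib* (-0.0151 to 0.0146 without control replicate 1, and 0.00941 without *Qk* cKO replicate 2). The cause of these moves was not tested. The planned count of ACTAAC motifs in flanking introns, with windows of 300 or 200 nt, was not run. Depth limits the blocks: the median coverage was 58 tags in tested and 109 in changed events.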

Other observations

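In 7 loci the inner junctions changed while the block as a whole did not pass. They were chosen after their values were seen. The largest difference was in *Agrn*, which encodes the extracellular matrix protein agrin: the junction of its 87-nt and 128-nt exons (chr4:156173003-156173382, annotated with no coding part) received 4 and 9.02 tags in the control embryos and at most 1.01 in either *Qk* cKO embryo, beside 1 and 2 skipping tags against 6 and 11 (Fisher's exact test on inner and skipping tags, FDR 0.00068). These counts are small. In *Mtap4*, the microtubule-associated protein 4 gene, inclusion of the coding block of 114 and 93 nt (chr9:110071026-110072705) was 0.622 and 0.634 in control and 0.730 and 0.719 in *Qk* cKO (FDR of Fisher's exact test 0.0532, Δ*I* under 0.1), with skipping tags of 101 and 83 against 66 and 58.6. The other loci were *0610037P05Rik*, *2210018M11Rik*, *Anks1b*, *Fam188a* and *Meg3*, with inner-junction differences, control minus *Qk* cKO, of -0.124, -0.298, -0.241, 0.25 and -0.312.

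The *Dctn1* event that changed is a pair of very short coding exons of 21 and 18 nt followed by another of 21 nt. It was named after its values were seen. Counted up to that last exon, inclusion of the pair was 0.868 and 0.882 in control and 0.982 and 0.995 in *Qk* cKO (Δ*I* -0.115, Fisher's exact test, FDR 0.003), and transcripts with neither exon went from 16.95% and 15.1% of tags to 2.4% and 0.6%. The longer block of all 3 exons did not pass, at 0.517 and 0.565 in control and 0.527 and 0.626 in *Qk* cKO (Δ*I* -0.045, FDR 0.596). In *Ttc3* the changed event had an inclusion of 0.380 and 0.490 in control and 0.507 and 0.584 after deletion (FDR of Fisher's exact test 0.007).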
